A study of Rattus norvegicus with 192 samples.

Results

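Cdkn1a, the Gadd45 genes and 5 further growth arrest genes were followed in rats that had breathed phosphine (PH3), a fumigant gas, or air. The 9 genes were Cdkn1a, Gadd45a, Gadd45b, Gadd45g, Btg2, Ccng1, Mdm2, Fas and Bbc3, and their members on the array were the probe sets whose platform annotation named 1 of them alone. That gave 13 of the 31042 probe sets tested and 8 of the 13438 genes named. Cdkn1a had 2 probe sets, Mdm2 and Fas had 3 each, and Gadd45a, Gadd45b, Gadd45g, Ccng1 and Bbc3 had 1 each. Btg2 was not analysed here, because no probe set carried its name alone.

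The rats were male Sprague-Dawley animals, with no genetic change named, exposed in a whole-body chamber to PH3 at 660 ppm for 25 min, a product of 16500 ppm × min and 0.71 times the LCt50, the product that kills the median animal, or to Air. Lung, kidney, heart, brain stem, olfactory bulb and blood were taken 1, 3, 6 or 24 h later under ketamine and xylazine, which both exposures received. The 48 groups held 4 rats each, except 3 for blood of Air rats at 24 h and 5 for olfactory bulb of Air rats at 1 h, on 192 arrays from 59 rat numbers. At 1 h, lung, kidney, heart, brain stem and blood came from the same 4 PH3 rats, Rat343, Rat350, Rat351 and Rat357, and the olfactory bulbs came from other rats.

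The labelled tissues carried their own markers: the 7 heart genes averaged 12.73 on the log2 scale in heart, the 8 lung genes 12.45 in lung, the 7 kidney genes 10.70 in kidney, the 8 neuron genes 10.14 in brain stem and 10.69 in olfactory bulb, and the 6 red cell genes 11.18 in blood. The 7 heart genes also averaged 7.25 in lung. Of the arrays, 29 correlated with their tissue's other arrays by more than 3 scaled median deviations below the tissue's median, and 0 matched another tissue best. Counts below are also given without those 29 arrays where that changed a call.

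As background, cells that sense damage or stress can halt division before they repair or die. Cdkn1a encodes p21, an inhibitor of cyclin-dependent kinases, and its transcription is raised by the tumour suppressor p53 and also by hormone and stress signals that do not need p53. The 3 Gadd45 genes encode small, acidic, inducible proteins that bind p21, PCNA and the kinase MAP3K4, and through MAP3K4 they can switch on p38 and JNK. Ccng1, Mdm2, Fas and Bbc3 are textbook p53 targets: cyclin G1, the ubiquitin ligase that degrades p53, a death receptor, and the BH3-only protein PUMA.

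The stretch upstream of the start is shown for the 6 genes with a called value. Ccng1 and Fas among them are textbook p53 targets, and p53 also raises Cdkn1a. RefSeq promoters on GRCr8, the 250 bases before the start in gene orientation, were at hand for 8 of the 9 genes, and Bbc3 had no entry. Capitals mark motif matches, searched on both strands. Gadd45b (chr7:9430719-9430968, minus strand) had no match. The matches are the p53 half-site in Cdkn1a (chr20:7150682-7150931, plus strand), Gadd45a (chr4:97486800-97487049, minus strand) and Ccng1 (chr10:25684877-25685126, minus strand), a C/EBP-ATF element followed by a TATA box in Gadd45g (chr17:13530352-13530601, minus strand), and AP-1 letters in Fas (chr1:241211905-241212154, plus strand).
Cdkn1a: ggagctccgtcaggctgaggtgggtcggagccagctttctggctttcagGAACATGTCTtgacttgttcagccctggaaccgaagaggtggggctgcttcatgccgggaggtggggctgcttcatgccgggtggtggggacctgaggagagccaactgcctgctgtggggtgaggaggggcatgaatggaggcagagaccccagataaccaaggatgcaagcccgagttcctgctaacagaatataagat
Gadd45a: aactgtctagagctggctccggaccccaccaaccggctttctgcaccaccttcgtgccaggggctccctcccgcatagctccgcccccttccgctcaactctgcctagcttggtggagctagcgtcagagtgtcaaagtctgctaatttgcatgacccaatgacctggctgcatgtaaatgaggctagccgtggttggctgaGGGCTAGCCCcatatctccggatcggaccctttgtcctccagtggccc
Ccng1: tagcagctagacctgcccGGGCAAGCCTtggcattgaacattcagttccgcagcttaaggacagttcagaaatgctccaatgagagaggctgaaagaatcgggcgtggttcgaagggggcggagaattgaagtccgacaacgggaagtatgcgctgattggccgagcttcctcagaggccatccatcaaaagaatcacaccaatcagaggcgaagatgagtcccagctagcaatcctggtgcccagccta
Gadd45g: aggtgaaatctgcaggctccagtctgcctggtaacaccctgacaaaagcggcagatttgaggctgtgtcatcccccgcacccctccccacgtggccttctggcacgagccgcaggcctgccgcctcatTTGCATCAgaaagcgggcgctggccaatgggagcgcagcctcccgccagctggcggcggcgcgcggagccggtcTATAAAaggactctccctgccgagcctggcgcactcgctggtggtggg
Gadd45b: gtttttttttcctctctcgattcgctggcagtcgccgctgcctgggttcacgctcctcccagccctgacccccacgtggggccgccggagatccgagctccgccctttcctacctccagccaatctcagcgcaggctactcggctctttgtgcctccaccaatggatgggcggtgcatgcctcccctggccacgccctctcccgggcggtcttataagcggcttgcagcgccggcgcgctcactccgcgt
Fas: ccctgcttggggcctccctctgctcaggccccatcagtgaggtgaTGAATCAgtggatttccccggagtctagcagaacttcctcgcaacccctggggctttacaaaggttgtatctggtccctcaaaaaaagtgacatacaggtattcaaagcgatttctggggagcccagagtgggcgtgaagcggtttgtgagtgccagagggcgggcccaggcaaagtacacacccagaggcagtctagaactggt

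The half-site GAACATGTCT began 201 bases before the start of Cdkn1a, GGGCTAGCCC began 48 bases before that of Gadd45a, and GGGCAAGCCT began 232 bases before that of Ccng1. Each reads as a half-site on both strands, as any match must, because the motif searched is its own reverse complement. Of 33469 promoters of this length, 6.64% held a p53 half-site, so 3 of 8 among these genes is a description of the letters and shows neither binding nor a cause. The C/EBP-ATF letters searched were TGATGNAA, held by 3.4% of promoters, and in Gadd45g they lay on the minus strand as TTGCATCA, 122 to 115 bases before the start. TATAAA stood 48 to 43 bases before the Gadd45g start and in 12.9% of promoters. Fas held the AP-1 letters TGANTCA, present in 6.34% of promoters, as TGAATCA 205 to 199 bases before its start, and Btg2 held the CRE letters TGACGTCA, present in 1.59%. The glucocorticoid half-site TGTTCT, in 17.5% of promoters, was in 0 of the 8, and Gadd45b and Mdm2 held none of the 6 motifs in this window.

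In rats that breathed air the members differed widely between organs. The levels are log2 intensities of 1 probe set per gene, the one with the highest mean over all arrays, and are compared between tissues for the same probe set only. No source says if the tissues were normalized as 1 set, so these levels are a description with no test. Cdkn1a was highest in heart (8.17 ± 0.544, SD, n = 16) and lung (7.56 ± 0.560, n = 16). It was intermediate in brain stem (6.44), blood (6.34) and olfactory bulb (6.34), and lowest in kidney (5.53 ± 0.565, n = 16), and every neighbouring pair in that order overlapped. The dimmer Cdkn1a probe set kept heart first and kidney last, and there heart lay 2.66-fold over lung with no overlap between the arrays.

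Gadd45b was highest in lung. Its Air arrays in lung ran from 8.75 to 9.91, and the next tissue, heart, ran from 6.44 to 7.98, which put lung 4.65-fold above heart with no overlap. Gadd45a was highest in kidney (10.06 ± 0.157, n = 16) and heart (9.80 ± 0.292, n = 16) and lowest in olfactory bulb (7.82 ± 0.141, n = 17), with every neighbouring pair overlapping. Gadd45g was high in kidney (7.83), heart (7.73) and lung (7.16). A 2.44-fold step without overlap then led down to brain stem (5.88) and olfactory bulb (5.79), and blood was lowest (4.69). Each of the 3 genes had another order of organs.

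Ccng1 stood out in heart, where Air arrays ran from 11.06 to 11.63. Olfactory bulb followed at 8.97 to 9.47, so heart was 4.58-fold higher with no overlap, while the other 5 tissues overlapped their neighbours. Mdm2 spanned 8.83 in lung to 8.11 in brain stem, and blood lay apart at 7.13 ± 0.627 (SD, n = 15), 1.97-fold under brain stem with no overlap. Fas was dim everywhere and brightest in lung (5.19 ± 0.255, n = 16), and its 3 probe sets stood at the 26.3, 21.7 and 11.2 percentiles of all probe sets by mean. Bbc3 was highest in blood (7.77) and lowest in brain stem (6.16).

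**Figure D1:**
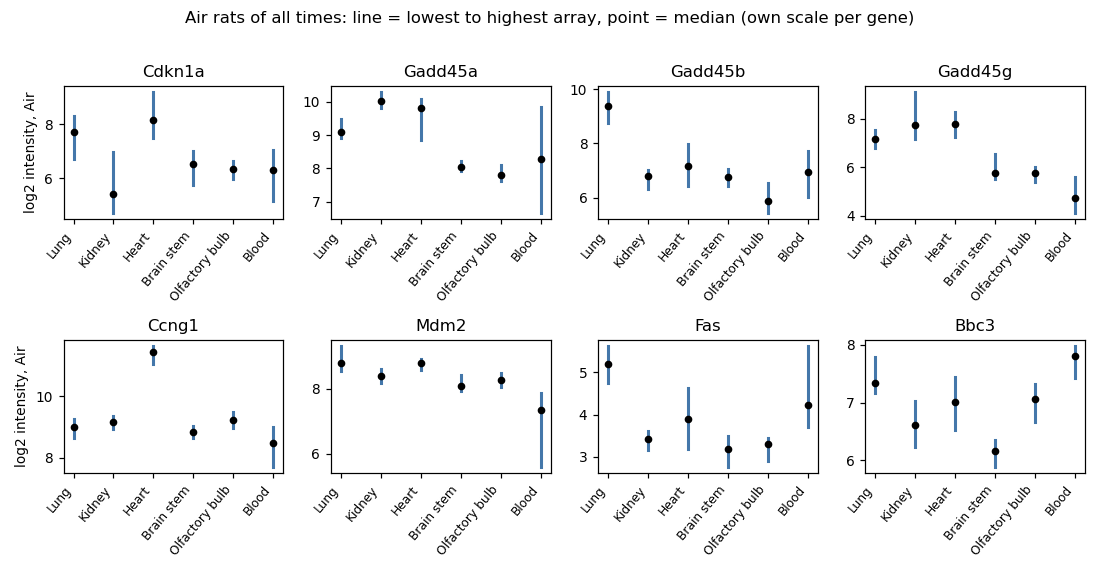
Log2 intensity of the brightest probe set of 8 genes in Air rats of all times, 1 panel per gene with its own scale and 1 position per tissue; lines run from the lowest to the highest array (15 to 17 rats) and points are medians. Gadd45b in lung (lowest array 8.75) and Ccng1 in heart (lowest array 11.06) stand clear of every other tissue.

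Most changes of the members after PH3 were seen at 1 h. Across 24 comparisons of PH3 with Air, 6 tissues at 4 times, 16 member values passed an adjusted p under 0.05 (limma moderated test, Benjamini-Hochberg over all 31042 probe sets), and 14 of them were at 1 h. Cdkn1a rose in lung, kidney, heart and brain stem, Gadd45a in lung and kidney, Gadd45b in kidney and heart, and Gadd45g in heart and brain stem. At 3 h Ccng1 and Fas rose in lung. The 1 lower value was a Fas probe set in lung at 1 h. Of all probe sets, 4.24% were called in lung, 2.35% in kidney, 0.915% in heart and 0.306% in brain stem at 1 h. In lung at 3 h 9.89% were called, so the array as a whole was not highest at 1 h there. Each effect is the PH3 mean less the Air mean in log2 units, given ± its SE from the fit. Since these are bulk samples, fewer cells of a type and less RNA per cell cannot be told apart. With only the 8 arrays of a comparison in the fit, 5 of the 16 calls held: both Cdkn1a probe sets and Gadd45a in lung and Gadd45b in kidney at 1 h, and Fas in lung at 3 h.

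**Figure D2:**
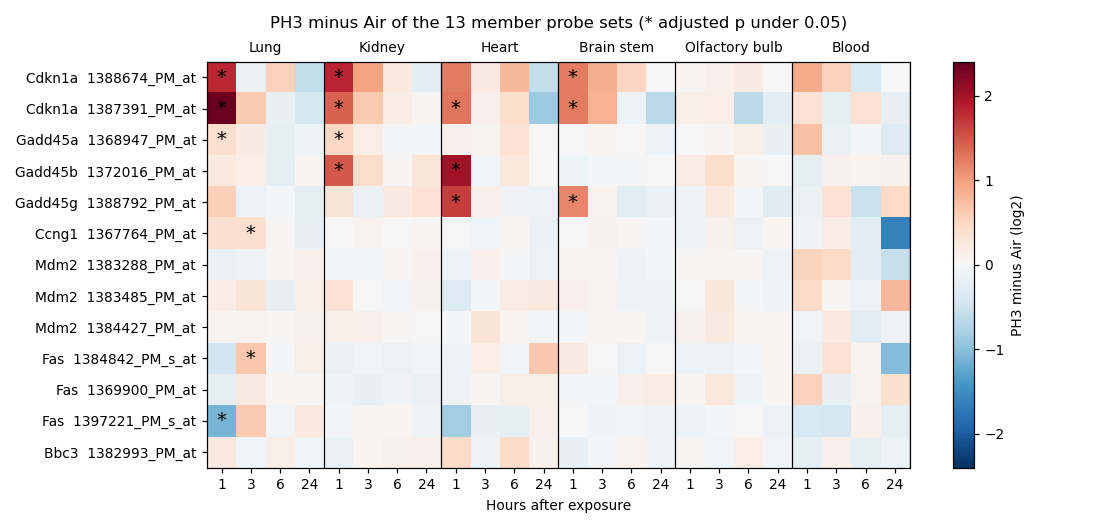
PH3 minus Air (log2, colour) of the 13 probe sets in 6 tissues at 1, 3, 6 and 24 h, with an asterisk at an adjusted p under 0.05. Of the 16 asterisks, 14 lie in the columns of 1 h, and 7 belong to Cdkn1a. Of all probe sets, up to 4.24% of a tissue passed at 1 h (lung), and 9.89% passed in lung at 3 h.

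Cdkn1a rose in lung on both of its probe sets. The brighter probe set read 7.21, 7.85, 7.95 and 8.20 in the 4 Air rats at 1 h and 8.88, 9.65, 9.89 and 10.05 in the 4 PH3 rats. Every PH3 rat lay above every Air rat, and the effect was 1.82 ± 0.281 (3.52-fold, adjusted p = 1.48e-04, limma). The dimmer probe set read 5.54 to 6.19 in Air and 7.88 to 8.81 in PH3, again without overlap, an effect of 2.35 ± 0.239 (5.09-fold, adjusted p = 1.28e-06, limma). In all, 4 of 13 member probe sets were called in lung at 1 h, where 4.24% of all probe sets were.

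By 3 h the lung groups overlapped on both probe sets. The brighter one then read 7.69 to 8.18 in Air and 7.46 to 7.99 in PH3, an effect of -0.15 ± 0.281, and at 24 h the effect was -0.58 ± 0.281 (adjusted p = 0.812, limma). The dimmer probe set still differed by 0.63 ± 0.239 at 3 h, short of the threshold (adjusted p = 0.0901, limma). The F test that the lung effect differed between the 4 times passed for both probe sets (adjusted p = 0.00233 and 6.68e-05, limma), in a tissue where 4.82% of probe sets passed it.

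Kidney started from the lowest Cdkn1a level of the 6 tissues. Air rats at 1 h read 5.41, 5.66, 5.70 and 6.97, and PH3 rats read 6.80, 7.95, 8.07 and 8.22. One Air rat lay above the lowest PH3 rat, and the other 3 PH3 rats lay above all Air rats. The effect was 1.83 ± 0.318 (3.55-fold, adjusted p = 9.96e-04, limma), and 1.41 ± 0.279 on the dimmer probe set, whose groups did not overlap (adjusted p = 0.00393). Kidney had 4 of 13 member probe sets called at 1 h against 2.35% of all. At 3 h the PH3 kidneys were still all above the Air kidneys, by 0.95 ± 0.318, but this did not pass (adjusted p = 0.266, limma), in a comparison where 0.303% of all probe sets did.

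Brain stem rose from 6.54, 6.60, 6.78 and 7.02 in Air rats to 7.22, 8.03, 8.13 and 8.46 in PH3 rats at 1 h. The groups did not overlap, and both probe sets were called (1.22 ± 0.206 and 1.25 ± 0.225, adjusted p = 0.00335 and 0.00621, limma). Of the 13 member probe sets 3 were called there, against 0.306% of all. In the fit of all tissues with the rat as replicate block, which pools the spread over tissues, none of the 3 passed (adjusted p of 0.111, 0.112 and 0.112). At 3 h the PH3 rats read 7.06 to 7.68 over Air rats at 6.35 to 6.68, a non-overlapping 0.86 ± 0.206 that did not pass (adjusted p = 0.33, limma). In that comparison 0.0161% of all probe sets passed, and by 24 h the means were both 6.20. Against Air arrays of the other times, 1 member probe set was called in brain stem at 3 h and 1 at 24 h. Air brain stems themselves differed between times for 7.8% of probe sets (limma F test). The share of all probe sets called against those arrays is not given here, so these counts show no lasting Cdkn1a effect. The time course differed by the F test for the dimmer probe set (adjusted p = 0.013, limma) and not for the brighter (adjusted p = 0.38), with 0.0709% of probe sets passing.

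Heart had the highest resting Cdkn1a and its 2 probe sets differed by like amounts with unlike precision. On the brighter one Air rats read 7.51, 8.17, 8.41 and 8.80 and PH3 rats 8.52, 9.44, 9.54 and 10.38, a difference of 1.25 ± 0.382 that did not pass (adjusted p = 0.125, limma). The dimmer one read 6.85 to 7.75 in Air and 8.19 to 8.79 in PH3 without overlap, a rise of 1.29 ± 0.289 (adjusted p = 0.0241, limma). This call was lost in 6 of the 8 fits that left out 1 rat, with an adjusted p of up to 0.112. Heart had 3 of 13 member probe sets called, against 0.915% of all. With the rat as replicate block, a fit that pools the spread over tissues, 6 were called. The share of all probe sets in that fit is not given here. At 24 h PH3 hearts read lower on both, by -0.60 ± 0.382 and -0.87 ± 0.289, and neither passed (adjusted p = 0.789 and 0.535, limma).

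Blood and olfactory bulb gave no Cdkn1a call. The brighter probe set read 5.40, 6.20, 6.23 and 6.94 in blood of Air rats at 1 h and 6.95, 7.01, 7.12 and 7.24 in PH3 rats. These groups did not overlap, but the effect of 0.89 ± 0.342 had an adjusted p of 0.454 (limma), in a comparison where 0% of probe sets passed. With the rat as replicate block 4 member probe sets were called in blood at 1 h and 4 at 24 h. That fit pools the spread over tissues, which differ in it: the SD of Gadd45a over Air rats was 0.947 in blood and 0.104 in brain stem. A pooled spread can be too small for blood, and the share of all probe sets in that fit is not given here. No conclusion is drawn from these counts. In olfactory bulb at 1 h the effect was 0.05 with a 95% interval from -0.38 to 0.48, below the estimates of brain stem, lung and kidney. That the effect at 1 h differed between the 6 tissues passed for both probe sets (adjusted p = 0.00167 and 4.75e-04, a Welch-type test across the 6 limma fits), as it did for 3.09% of all.

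**Figure D3:**
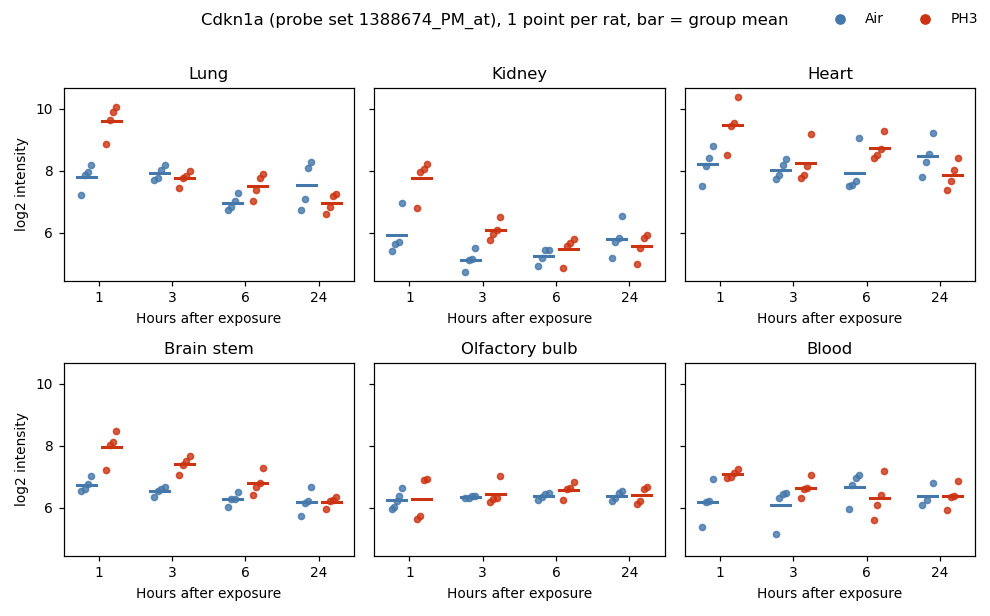
Cdkn1a log2 intensity (brighter probe set) against hours after exposure in 6 tissues, 1 point per rat, blue for Air and red for PH3, with bars at group means. At 1 h the lung means are 7.80 and 9.62 and the kidney means 5.93 and 7.76; at 24 h PH3 and Air overlap in every tissue.

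The 2 Cdkn1a probe sets had the same sign in 16 of 24 comparisons, and they differed by at most 0.85. Across those 24 effects they correlated with r = 0.81, a description over values that share rats. They were also read from the same arrays.

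Of the Gadd45 genes, Gadd45b made the largest move. Air hearts at 1 h read 6.85, 7.09, 7.46 and 7.60, and PH3 hearts read 7.88, 9.17, 9.87 and 10.14. All 4 PH3 hearts lay above all Air hearts, and 3 of them passed the level of the lowest Air lung. The effect was 2.01 ± 0.328 (4.03-fold, adjusted p = 0.00134, limma), and it held in 8 of 8 fits without 1 rat.

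Kidney showed the same gene at 6.57, 6.81, 6.84 and 6.93 in Air and at 7.64, 7.96, 8.60 and 8.80 in PH3. The groups did not overlap, with an effect of 1.46 ± 0.202 (2.76-fold, adjusted p = 5.8e-05, limma). By 3 h it was 0.44 ± 0.202 (adjusted p = 0.455), and the F test between times passed (adjusted p = 0.0362, limma) beside 0.49% of all probe sets in kidney. It did not pass without the arrays that stood apart (adjusted p = 0.0783). In heart the same F test gave an adjusted p of 0.107, where 0.116% passed.

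Lung, where Gadd45b is highest at rest, showed 0.24 ± 0.159 at 1 h (95% interval -0.09 to 0.56), and brain stem read 6.52 to 6.87 in Air and 6.55 to 6.62 in PH3. The effects at 1 h differed between tissues (adjusted p = 3.9e-07, Welch-type test across limma fits). That test treats the tissues as independent although most came from the same rats.

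Gadd45g joined in heart and brain stem. Air hearts at 1 h read 7.69, 7.79, 7.88 and 8.23. PH3 hearts read 7.77, 9.94, 10.10 and 10.44, so 3 rats were far above Air and Rat351 lay among the Air rats. The effect of 1.67 ± 0.401 was called (adjusted p = 0.0375, limma), but it was lost in 7 of 8 fits without 1 rat and kept only without Rat351, where it was 2.26 (adjusted p = 7.86e-05).

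In brain stem Gadd45g read 5.51, 5.52, 5.77 and 6.18 in Air and 6.03, 6.70, 7.40 and 7.51 in PH3, with 3 PH3 rats above all Air rats. It rose by 1.16 ± 0.214 (adjusted p = 0.00738, limma), and the call was lost without PH3 Rat343 or PH3 Rat357. Lung gave 0.57 ± 0.175, just short of the threshold (adjusted p = 0.0611). Kidney, the organ with the highest resting level, gave 0.31 ± 0.395, with PH3 rats at 7.90 to 8.68 and Air rats at 7.41 to 8.46. The tissues differed at 1 h (adjusted p = 3.9e-04, Welch-type test).

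Gadd45a rose by the smallest amounts of the family. In lung at 1 h Air rats read 8.92, 9.01, 9.02 and 9.06 and PH3 rats 9.26, 9.43, 9.46 and 9.46. The groups did not overlap, and the rise was 0.40 ± 0.073 (1.32-fold, adjusted p = 8.94e-04, limma). The resting level itself moved with time in lung: Air means were 8.99 at 3 h, 9.40 at 6 h and 9.29 at 24 h, and the F test between Air groups passed (adjusted p = 0.00163) as for 12.2% of lung probe sets. Against the Air lungs of the other 3 times the effect was 0.18 and did not pass (adjusted p = 0.0512, limma). Its effect differed between times in lung (adjusted p = 0.00189, limma), reading -0.22 ± 0.073 at 6 h.

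In kidney Gadd45a read 9.95, 10.00, 10.02 and 10.30 in Air and 10.38, 10.46, 10.68 and 10.76 in PH3, a non-overlapping rise of 0.50 ± 0.115 (1.42-fold, adjusted p = 0.013, limma). It was lost without PH3 Rat343, PH3 Rat357 or Air Rat354, and, like the lung call, with the rat as replicate block (adjusted p = 1 in both). Blood differed by more, 0.70 ± 0.554, and overlapped (adjusted p = 0.798). The difference between tissues at 1 h passed (adjusted p = 0.014, Welch-type test) but not with the rat as replicate block (adjusted p = 0.73).

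**Figure D4:**
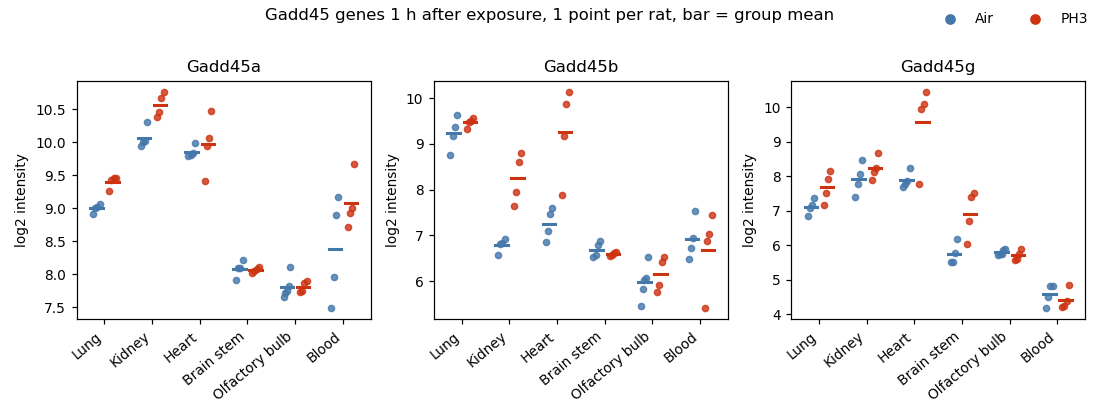
Log2 intensity of Gadd45a, Gadd45b and Gadd45g 1 h after exposure in 6 tissues, 1 point per rat, blue for Air and red for PH3, with bars at group means. Gadd45b separates in kidney and heart, Gadd45g in 3 of 4 PH3 rats of heart and brain stem, and Gadd45a by a small step in lung and kidney.

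The 4 PH3 rats of 1 h spread widely. Of the 14 member calls at 1 h, Rat351 was the PH3 rat nearest the Air mean in 10, Rat343 in 2, and Rat350 and Rat357 in 1 each. For Gadd45b in heart Rat351 stood 0.63 over the Air mean, and the others stood 1.92, 2.62 and 2.89 over it. For brighter-probe Cdkn1a it stood 1.08 over Air in lung against 1.85 to 2.25, and 0.87 in kidney against 2.02 to 2.29.

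Its readings were not low throughout. On the dimmer Cdkn1a probe set in lung Rat351 stood 2.14 over the Air mean, above Rat343 at 1.96, and its Gadd45a value in lung was level with Rat357 at 0.46. Arrays of Rat351 stood apart from their tissue in kidney and lung, those of Rat343 in blood, brain stem and kidney, and those of Rat357 in heart and lung. Without the arrays standing apart the counts of called member probe sets were 2 in brain stem, 1 in heart, 4 in kidney and 4 in lung at 1 h, and 0 in lung at 3 h. The share of all probe sets called in that fit is not given here, so these counts are no result about the members. The part of those arrays in the results was otherwise not tested.

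**Figure D5:**
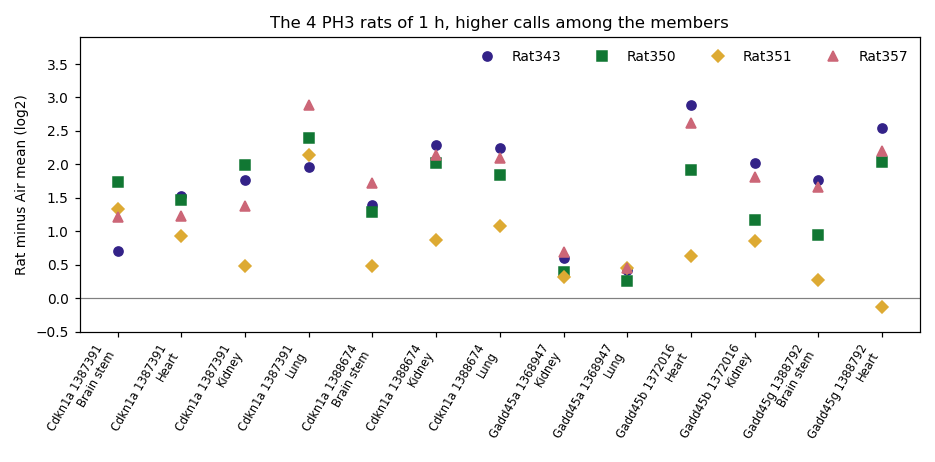
Each PH3 rat's log2 value minus the Air mean at 1 h for the 13 higher calls, 1 symbol per rat and 1 position per probe set and tissue. Rat351 (orange diamonds) is the lowest symbol in 10 of the 13 positions, down to -0.12 for Gadd45g in heart.

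Ccng1 showed a small rise in lung. At 3 h Air rats read 8.65, 8.71, 8.78 and 8.89 and PH3 rats 8.97, 9.17, 9.18 and 9.25. The groups did not overlap and the rise was 0.39 ± 0.118 (1.31-fold, adjusted p = 0.0341, limma). The call was lost in 6 of 8 fits that left out 1 rat, all but those without PH3 Rat399 or Air Rat400, with an adjusted p of up to 0.11. At 1 h the effect was 0.40 ± 0.118, just short (adjusted p = 0.0513). Lung at 3 h had 2 of 13 member probe sets called where 9.89% of all were.

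The brightest Fas probe set read 4.84, 4.95, 5.17 and 5.25 in Air lungs at 3 h and 5.55, 5.59, 5.80 and 5.81 in PH3 lungs. That was a non-overlapping rise of 0.64 ± 0.152 (1.56-fold, adjusted p = 0.00888, limma). It was the only one of the 3 Fas probe sets called at 3 h: 1397221_PM_s_at read 0.64 ± 0.285 and 1369900_PM_at 0.22 ± 0.117 (adjusted p = 0.161 and 0.257, limma). At 1 h another Fas probe set, 1397221_PM_s_at, read 4.90, 4.96, 4.98 and 5.73 in Air and 3.62, 3.77, 4.36 and 4.40 in PH3, and fell by 1.11 ± 0.285 (adjusted p = 0.0212, limma). The brightest probe set read -0.46 at that time and was not called. Fas in lung read lower at 1 h and higher at 3 h, and both probe sets passed the F test between times (adjusted p = 0.0156 and 0.0374, limma). Neither did without the arrays that stood apart (adjusted p = 0.0803 and 0.0589).

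Several measures differed in lung at 3 h. The 3′ index, the 3′ minus 5′ log2 level of the Gapdh and actin control probe sets, was 0.343 to 0.521 in Air lungs and 0.095 to 0.247 in PH3 lungs. With that index as a covariate Ccng1 was 0.23 (adjusted p = 0.668) and Fas 0.51 (adjusted p = 0.438), and neither was called. With the rat as replicate block neither passed (adjusted p = 0.631 and 0.0917). Against the Air lungs of other times Ccng1 was 0.09 (adjusted p = 0.784) and Fas 0.45 (adjusted p = 0.063, limma). At 1 h the index was high in PH3 Rat357, at 0.868 in heart and 0.713 in brain stem. Air rats of 1 h ran from 0.228 to 0.278 in heart and from 0.401 to 0.508 in brain stem. With the index as covariate 14 of the 16 calls held.

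Most leukocyte markers were higher too in lung at 3 h. Positive effects were seen in 7 of 7 neutrophil genes, 9 of 9 T cell genes and 7 of 7 macrophage genes. Of these lists 3, 2 and 1 genes were called, where 9.89% of all probe sets were. Of 5 B cell genes 4 had positive effects (median 0.10) and 0 were called. S100a8 rose by 1.41, Mmp8 by 1.36, S100a9 by 1.21, Cd5 by 0.90, Cd3e by 0.57 and C1qb by 1.04. Of 10 endothelial genes 5 had positive effects, and 1 was called, Vwf, which fell by 0.55. The mean level of the neutrophil list per array ran from 4.95 to 6.18 in Air and 5.98 to 7.11 in PH3, that of the T cell list from 5.59 to 5.97 and 5.95 to 6.33, and that of the macrophage list from 7.16 to 7.60 and 7.69 to 7.93. Their part in the Ccng1 and Fas values was not tested.

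Mdm2 and Bbc3 gave 0 calls in 24 comparisons by limma. Outside blood, the brightest Mdm2 probe set stayed between -0.16 and 0.13, with 95% intervals reaching from -0.37 to 0.36. In blood it ran from -0.54 at 24 h to 0.54 at 1 h (adjusted p = 0.824 and 0.771, limma). The narrow range held for that probe set only: 1383485_PM_at read 0.35 ± 0.134 in kidney and -0.32 ± 0.428 in heart at 1 h (adjusted p = 0.222 and 0.82, limma). Its 3 probe sets did not track each other: the brightest had the same sign as each of the other two in 14 of 24 comparisons, with r of -0.13 and 0.38. Bbc3 ran from -0.24 to 0.47. Its highest values were in heart at 1 h and 6 h (0.47 ± 0.159 and 0.46 ± 0.159, adjusted p = 0.184 and 1, limma).

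Mdm2 did vary with the time of sampling. In Air brain stem the mean of 1384427_PM_at was 7.41, 7.29, 7.39 and 7.69 at 1, 3, 6 and 24 h, highest at 24 h. That F test passed for it and for 1383485_PM_at (adjusted p = 0.00451 and 0.0207), as for 7.8% of brain stem probe sets. Without the arrays that stood apart neither passed (adjusted p = 0.103 and 0.151, limma). Of the member probe sets, only these and Gadd45a in lung passed it, and in the other tissues it passed for 0.548% of probe sets in heart, 0.00322% in kidney, 1.39% in olfactory bulb and 0% in blood.

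The remaining 19 comparisons had 0 member calls. Kidney at 3 h had 0.303% of all probe sets called, close to the 0.306% of brain stem at 1 h, where 3 member probe sets were called. Elsewhere few passed: 0.0161% in kidney at 6 h and in brain stem at 3 h, 0.00644% in heart at 3 h and at 24 h, 0.00322% in brain stem at 24 h and in olfactory bulb at 1 h, and 0% in blood at any time, brain stem and heart at 6 h, kidney at 24 h, lung at 6 and 24 h, and olfactory bulb from 3 h on. At an unadjusted p under 0.05 the 12 comparisons with 0 calls held 904 to 3055 probe sets. Blood had the widest uncalled values, Ccng1 at -1.62 ± 0.532 and Fas at -1.04 ± 0.354 at 24 h (adjusted p = 0.765 for both, limma), with 3 Air rats and 3 of 4 PH3 arrays standing apart. Between tissues, 0.303% of probe sets passed at 3 h, 0.00644% at 6 h and 0% at 24 h, and 0 members did. In blood and olfactory bulb the effect differed between times for 0% of probe sets.

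Other genes that act with these were counted from lists, by the brightest probe set of each gene. Of 23 p53 targets measured of 28, 1 rose in brain stem at 1 h, 1 in kidney at 1 h, 3 in lung at 1 h and 2 in lung at 3 h, and 0 fell. Of all probe sets, 0.306%, 2.35%, 4.24% and 9.89% were called in those comparisons, so the 2 of 23 in lung at 3 h were no larger a share than the background. Their median effects at 1 h were -0.02 in brain stem, 0.01 in kidney and -0.03 in lung, against medians of 0.0019, -0.0024 and -0.0094 over all probe sets. Sesn1, a sestrin that restrains mTORC1, rose in brain stem (0.44 ± 0.0786), lung at 1 h (0.51 ± 0.0950) and lung at 3 h (0.58 ± 0.0950). Tp53inp1, a p53 cofactor, rose in kidney by 0.61, and Tigar, Sfn and, at 3 h, the phosphatase gene Ppm1d rose in lung by 0.42, 0.42 and 0.47.

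Among 21 of 22 other brakes of growth, Ppp1r15a, the stress-induced regulator of protein phosphatase 1 also called GADD34, rose in heart by 0.81, in kidney by 0.97 and in lung by 0.34 at 1 h. Kidney also had Tob2 at 0.77 and Btg3 at 0.39, both of the BTG/TOB family to which Btg2 belongs. In lung the pocket protein gene Rbl2 fell by 0.31 at 1 h and rose by 0.31 at 3 h, when Cdkn2b and Gas1 rose by 1.10 and 0.71. The 3′ index and leukocyte values given for lung at 3 h stand beside these 3 h values too. Of all probe sets, 0.915% were called in heart, 2.35% in kidney and 4.24% in lung at 1 h, and 9.89% in lung at 3 h.

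Cell cycle drivers showed little that passed. Of 27 measured of 28, 1 was called, cyclin D2 (Ccnd2), which fell by 0.55 in kidney at 1 h. In that comparison 2.35% of all probe sets were called. There 22 of 27 had negative effects with a median of -0.20, and in heart 21 of 27 with a median of -0.39 and 0 called, against medians of -0.0024 and -0.0036 over all probe sets. Other comparisons ran the other way with 0 called, 24 of 27 positive in kidney at 24 h (median 0.21) and 22 of 27 in olfactory bulb at 3 h (0.17). In lung at 24 h 24 of 27 were negative (-0.17). Of 8 measured kinases of the Gadd45 pathway, Map2k6, a kinase that switches on p38, fell by 0.51 in lung at 1 h and was the only one called. In the death receptor and BH3 list, 14 measured of 17, Cflar, which blocks caspase-8, rose in kidney by 0.71 and Bcl2l1, which encodes Bcl-xL, rose in lung by 0.71 at 1 h. Casp8, Mcl1 and Bmf rose in lung at 3 h by 0.51, 0.39 and 0.68. Of all probe sets, 2.35% were called in kidney at 1 h, 4.24% in lung at 1 h and 9.89% in lung at 3 h. With so few genes per list, these calls are named without a claim about the pathways.

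Markers of other cells moved at 1 h as well. In kidney 6 of 6 red cell genes had positive effects and Alas2 and Ahsp were called (1.38 and 0.82). The list's mean level ran from 4.47 to 4.85 in Air kidneys and from 4.87 to 5.26 in PH3 kidneys. The same 6 genes all had positive effects in lung (median 0.43 against 0.16 in kidney) and heart (0.25) with 0 called, and in lung the list's mean ran from 4.85 to 5.65 in Air and 5.59 to 6.00 in PH3. Heart markers had 7 of 7 positive effects in lung (median 0.30, 0 called), where their mean level ran from 6.73 to 8.21 in Air and from 6.17 to 9.81 in PH3. Sox17, an endothelial transcription factor, rose in heart (1.25), kidney (0.55) and lung (0.72). In lung Cldn5, a tight junction claudin, rose by 0.63 while the VEGF receptor gene Kdr fell by 0.49. Of all probe sets, 0.915% were called in heart, 2.35% in kidney and 4.24% in lung at 1 h. Of 10 endothelial genes, 6 had positive effects in heart (median 0.18), 9 in kidney (0.03), 4 in lung (-0.08) and 2 in brain stem (-0.18). The list's mean level ran from 8.70 to 8.90 in Air hearts and 8.68 to 9.58 in PH3 hearts, in kidney from 8.10 to 8.31 and 8.20 to 8.36, and in lung from 10.27 to 10.47 and 10.31 to 10.49. In lung at 1 h, 4 of 5 B cell genes and 8 of 9 T cell genes had negative effects (medians -0.66 and -0.11, 0 called). There 4 of 7 neutrophil genes and 3 of 7 macrophage genes had positive ones. In heart at 1 h, 6 of 6 genes of proliferating cells, which are among the drivers above, had negative effects (median -0.70, 0 called). The part of all these markers in the member results was not tested.

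By pattern over the 24 effects, the 5 genes of 9065 compared that were most like Cdkn1a were Crem (r = 0.76), Fkbp5 (0.76), Nfil3 (0.76), Tob2 (0.74) and Pde4d (0.74). The effects share rats and arrays, so r is a description. Fkbp5, a co-chaperone of steroid receptors, differed by 2.38 in lung, 1.40 in heart, 1.17 in brain stem and 1.16 in kidney at 1 h. Crem, a transcriptional repressor of the cyclic AMP response, differed by 1.97 in lung and 1.41 in heart. Within the members r with Cdkn1a was 0.57 for Gadd45a, 0.52 for Gadd45g, 0.45 for Gadd45b, 0.12 for Mdm2 and -0.31 for Fas. It was 0.59 between Ccng1 and Fas and 0.59 between Gadd45b and Gadd45g.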

How the data were processed

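RNA of 6 tissues was labelled with a 3′ in vitro transcription kit and hybridised to Affymetrix rat arrays, per the labels. The deposited values are log2 intensities that the authors obtained by RMA with the Partek software, as the submitters' processing notes list them. Neither the versions nor the set of arrays normalized at once is given in the sources used here. The values run from 2.04 to 14.18. After 97 control probe sets were left out, 31042 were tested with no filter: 19063 name 1 gene, 572 several, and 11407 are unnamed here. Arrays give no counts, so their number limits the precision.

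The arrays of a tissue were fitted together in R 4.3.3 with limma 3.58.1, 1 coefficient per group, with two-sided p-values and Benjamini-Hochberg adjustment across the 31042 probe sets. F tests compared effects, and Air groups, between times, and a Welch-type test compared the 6 tissue fits. The Welch-type test treats the tissues as independent although they share rats. With the rat as replicate block, 4 of its member results passed again and 1, Gadd45a, did not. The scripts were tested on simulated data with 200 changed probe sets. Members and lists were chosen with earlier results of these data known. Named were all members, up to 4 called genes per list and comparison by size of effect, and the 5 genes most like Cdkn1a among those with an effect of at least 0.5. Each array of a tissue came from another rat, so p-values measure the spread between rats. Rat numbers pair tissues of 1 animal, not PH3 with Air. The consensus correlation of a rat's tissues was 0.0168.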

Additional observations from a re-analysis of the deposited data

Results flagged for a closer look

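In 5 of 73 groups of 4 or 5 rats 1 rat lay far from the others, and chance flags about 1 in 20 such groups, or 3.6 here. The lowest PH3 lung at 1 h read 9.26 for Gadd45a, under others of up to 9.46. On the brighter Cdkn1a probe set, 1 blood of Air rats at 3 h read 5.16 below others of up to 6.48, 1 heart of Air rats at 6 h read 9.05 above others from 7.51, and 1 olfactory bulb of PH3 rats at 3 h read 7.03 above others from 6.18. The Fas probe set 1397221_PM_s_at read 5.73 in 1 Air lung at 1 h above others from 4.90.

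Effects of PH3 that differed between the 4 times of a tissue were those of Cdkn1a 1387391_PM_at in brain stem (adjusted p = 0.013, limma F test) and Gadd45b in kidney (0.0362). In lung they were those of Gadd45a (0.00189), Cdkn1a 1387391_PM_at (6.68e-05) and 1388674_PM_at (0.00233), and Fas 1384842_PM_s_at (0.0156) and 1397221_PM_s_at (0.0374). Between the 6 tissues at 1 h, the effects of Gadd45b (3.9e-07), Gadd45g (3.9e-04), Cdkn1a 1387391_PM_at (4.75e-04) and 1388674_PM_at (0.00167), and Gadd45a (0.014) differed by the Welch-type test.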

How the results depend on the processing

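No alternative run turned the sign of any of the 16 called effects. Centring arrays on their medians and the robust variance model kept all 16 calls. With the groups of 1 time alone, counts of called member probe sets went to 0 in brain stem, 0 in heart and 1 in kidney at 1 h and 1 in lung at 3 h. With the rat as replicate block, brain stem had 0, heart 6 and blood 4 at 1 h, blood 4 at 24 h, and lung at 3 h had 0. That fit pairs tissues by animal, with a consensus correlation of 0.0168, and also pools 1 spread over all tissues. The counts therefore do not show the effect of the pairing alone. Against Air of other times heart had 5 at 1 h, brain stem 1 at 3 h and 1 at 24 h, and lung at 3 h had 0. The Air groups themselves differed between times for 0.548% of probe sets in heart, 7.8% in brain stem and 12.2% in lung. Lung at 3 h also had 1 after quantile normalization, 1 among the brighter 50 percent of probe sets, 0 with the 3′ index as covariate and 0 without arrays that stand apart, a setting under which heart had 1 at 1 h. Leaving out 1 rat, heart ranged from 1 (without PH3 Rat343, Rat350 or Rat357, or Air Rat345, Rat352 or Rat353) to 6 (without PH3 Rat351). Lung at 3 h ranged from 1 (without PH3 Rat359 or Rat368, or Air Rat365 or Rat370) to 2, lung at 1 h from 3 to 6 (without PH3 Rat351), and blood at 24 h from 0 to 1 (without PH3 Rat333). Of 128 such fits of the called effects 28 lost the call. The share of all probe sets called under each of these settings is not given here. Changes in these counts are therefore not read as results about the members. The causes were not tested. The dim Fas probe sets limit what its values can show.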
